A study of Caenorhabditis elegans with 2 samples.

Results

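The genes described here are *egl-27* and *lin-40*, the worm homologues of the metastasis-associated (MTA) proteins, 2 of the 19973 protein-coding genes annotated on the nuclear chromosomes. *egl-27* was chosen by the signal of an ELT-3 peak in an intron of it, and *lin-40* because it is its paralogue, so the height of that peak is a description and no test was made on it. The members' regions are all those with a summit from 5000 bases upstream of the first annotated start to 1000 bases past the gene end.

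The data come from chromatin immunoprecipitation followed by sequencing (ChIP-seq) for ELT-3, a GATA-type zinc finger factor of the worm epidermis. Replicates 1 and 2, each a separate biological sample of the one group studied, are whole *Caenorhabditis elegans* at the L3 larval stage, with both sexes pooled and the age unknown. Their strain is OP75, and its genotype is unc-119(ed3) III with the insertion wgIs75. Every animal carries the unc-119 mutation and a stable transgene for ELT-3 fused to GFP and FLAG at the C terminus, so no animal without the tag and no second condition is compared. Chromatin of whole animals was used, so binding in few cells and weak binding in many cannot be told apart, and neither can the tissue of a site. Each region has a signal value from the authors' peak caller on a scale that no source used here defines, so levels are compared within a list and lists are set side by side by rank, with rank 1 the strongest. The pooled list and each replicate list hold 30000 regions, peaks and background together, with median signals of 13.1, 8.18 and 5.91 in the pooled, replicate 1 and replicate 2 lists. The list that passed the authors' threshold on the irreproducible discovery rate (IDR) holds 774 of the pooled regions, from a signal of 29.51 up, and the strongest pooled region outside it had 29.47. Read depth is unknown, because the lists give no read counts.

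MTA proteins are subunits of NuRD, a complex that joins a chromatin remodelling ATPase of the Mi-2 type with histone deacetylases and is known for gene repression. In the worm, *egl-27* is known for roles in cell polarity, cell migration and Hox gene patterning, and *lin-40* for roles in embryonic patterning and vulval development, and the pair acts partly redundantly in the embryo. EGL-27 has also been described as a GATA-type factor that promotes stress resistance and long life. The longest annotated forms of the proteins share a minority of their residues. A global alignment of them, EGL-27 of 1129 residues and LIN-40 of 1022, paired 791 residues, of which 221 (27.9%) were identical. These are 21.6% of the shorter protein. Such an alignment runs end to end, so the number paired is no measure of likeness. A local alignment, from residue 13 to 870 of EGL-27 and 99 to 879 of LIN-40, paired 656 residues, with 168 (25.6%) identical.

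The genes differ in how many annotated forms they have. *egl-27* (WBGene00001194) lies on the plus strand at chrII:6835008-6847908 of ce11 and has 24 annotated transcripts with 14 distinct starts. *lin-40* (WBGene00003025) lies on the plus strand at chrV:3704988-3712796 and has 5 transcripts with 3 starts. The forms of EGL-27 begin at 5 first coding bases, and those of LIN-40 at 2. Many worm transcripts receive a spliced leader, so an annotated start need not be where transcription begins. Of the 14 starts of *egl-27*, 6 lie at most 20 bases before a splice acceptor used by another transcript, and of the 3 of *lin-40*, 0 do. All 5 first coding bases of *egl-27* are themselves annotated starts, as is that of *lin-40* at position 3705545. A start at a first coding base may mark only where a coding model begins, so the number of starts is no count of promoters.

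The sequences that carry the comparison are those at the summits, shown with 100 bases to either side, on the plus strand from the RefSeq WBcel235 assembly, which has ce11 coordinates. GATA factors recognise WGATAR, that is AGATAA or AGATAG or TGATAA or TGATAG, which on the opposite strand reads TTATCT or CTATCT or TTATCA or CTATCA, and capitals mark every such match. The first sequence is the strong intronic summit of *egl-27* (chrII:6842782-6842982), with 4 matches, of which the second and the third overlap. The next pair is from upstream of *egl-27*, at a region with 3 matches (chrII:6833275-6833475) and at the strongest upstream region (chrII:6833888-6834088), which has 0 matches. The last pair is from *lin-40*, its strongest region (chrV:3711585-3711785) with 2 matches and its other one (chrV:3708693-3708893) with 0.

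egl-27 intron: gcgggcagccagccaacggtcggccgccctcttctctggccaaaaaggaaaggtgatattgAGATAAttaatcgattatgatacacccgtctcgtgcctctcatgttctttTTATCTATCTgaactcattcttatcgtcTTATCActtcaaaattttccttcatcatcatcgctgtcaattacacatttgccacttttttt

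egl-27 upstream with matches: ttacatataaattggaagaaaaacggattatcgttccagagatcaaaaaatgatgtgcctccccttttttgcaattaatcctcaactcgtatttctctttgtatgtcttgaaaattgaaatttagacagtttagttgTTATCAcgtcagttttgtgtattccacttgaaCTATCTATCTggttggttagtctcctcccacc

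egl-27 upstream without matches: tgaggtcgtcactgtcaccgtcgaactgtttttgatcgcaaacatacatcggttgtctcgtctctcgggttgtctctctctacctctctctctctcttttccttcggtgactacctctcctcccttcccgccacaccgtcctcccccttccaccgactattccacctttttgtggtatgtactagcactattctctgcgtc

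lin-40 strongest: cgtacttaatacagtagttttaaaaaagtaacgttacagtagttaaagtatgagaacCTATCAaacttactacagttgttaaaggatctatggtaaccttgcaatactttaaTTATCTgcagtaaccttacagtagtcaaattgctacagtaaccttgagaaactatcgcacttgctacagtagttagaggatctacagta

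lin-40 other: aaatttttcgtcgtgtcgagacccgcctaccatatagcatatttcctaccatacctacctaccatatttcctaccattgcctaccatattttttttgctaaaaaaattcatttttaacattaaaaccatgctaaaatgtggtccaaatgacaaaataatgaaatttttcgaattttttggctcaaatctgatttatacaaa

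The strong ELT-3 peak of *egl-27* lay deep in the gene, past most of its annotated starts. It covers chrII:6842712-6843051 with the summit at 6842882, 7874 bases from the first start. Its signal was 75.3 in the pooled and IDR lists, 46.3 in replicate 1 and 25.8 in replicate 2. It ranked 24 in the IDR and pooled lists, 22 in replicate 1 and 66 in replicate 2, so it was among the strongest regions of every list. The summits of the replicates lay at -11 and 30 bases from the pooled one. An IDR region that contains a summit among the strongest 774 of both replicate lists, as here, is found in 43.5% of all 774 IDR regions.

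The intron that holds it is the longest of the gene. It runs over chrII:6842606-6845361, 2756 bases, and is intron 10 of 12 in the transcript C04A2.3a.1. The summit lies 277 bases into it and 2480 bases before its end. Among the 219 IDR regions with a summit in an intron of a protein-coding gene, it ranked 8 by signal. An intronic IDR summit occurs in 190 protein-coding genes (0.951%), a share that the choice of *egl-27* used. The same intron also holds a small nucleolar RNA gene, C04A2.16, 358 bases downstream of the summit.

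Around this summit the annotated starts fall on both sides. The nearest is that of transcript C04A2.3c.6, 478 bases upstream of the summit. Its 5′ end lies 6 bases before a splice acceptor. Of the 14 starts, 12 (22 transcripts) lie before the summit and 2 (2 transcripts) past it, the nearer of these 2478 bases downstream. That nearer start lies 2 bases before a splice acceptor, and the other, at 6845375, is itself a first coding base. Neither need be where transcription begins. Read by coding sequence, the division is different, since 8 of the 24 transcripts, C04A2.3c.6 among them, have their first coding base past the summit, at chromosome position 6845375. That base is 2493 bases downstream of the summit. These 8 transcripts encode 2 proteins, of 612 and 614 residues, the shortest annotated for the gene. The other 4 first coding bases lie upstream of the summit, and the proteins that begin there have from 886 to 1129 residues. In the longest form, 510 residues are encoded before the position of the summit.

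A second IDR region falls in the window of *egl-27* but is nearer to another gene. It covers chrII:6848014-6848353, with the summit 276 bases past the end of *egl-27* and 60 bases past an annotated start of *tbc-6*, which encodes a protein with a TBC domain, a domain known from regulators of Rab GTPases. Its signal was 33.7 in the pooled list (rank 520), 13.8 in replicate 1 (rank 2161) and 19.6 in replicate 2 (rank 189). It was thus strong in replicate 2 and outside the strongest 774 of replicate 1. Its window holds 1 match to WGATAR, shown with 12 bases to either side from chrII:6848202-6848231.

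egl-27 downstream, at tbc-6: ggaaggttagttTGATAAcattttgtgtga

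Having at least 1 IDR summit in a window of this kind is uncommon, at 6.31% of the 19973 protein-coding genes, and having 2 or more rarer, at 0.751%. *egl-27* has 2 and *lin-40* has 0. Since *egl-27* was chosen for such a region, nothing is read from its count. These windows grow with gene length, and that of *egl-27* is 18.9 kb long, which 2.88% of genes reach. The window of *lin-40* is 13.8 kb long, which 7.92% of genes reach.

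The borders of the window leave out a pair of IDR regions close to *egl-27*. Upstream, a region at chrII:6829230-6829569 lies 608 bases outside the window and 5608 bases before the first start. Its signal was 44.03 (rank 209), and the nearest protein-coding start is that of *egl-27*. Downstream, a region inside *tbc-6* at chrII:6849230-6849569 lies 492 bases outside, with a signal of 42.2 (rank 240). The outermost pooled regions inside the window, 1073 and 196 bases from its borders, had signals of 10.8 and 10.8. In all, 4 IDR regions lie in the 20 kb from the upstream to the downstream one, a stretch drawn by its own outer regions around the peak that chose *egl-27*, so their number is a description. Of these, 2 have a start of *egl-27* as their nearest protein-coding start.

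**Figure D1:**
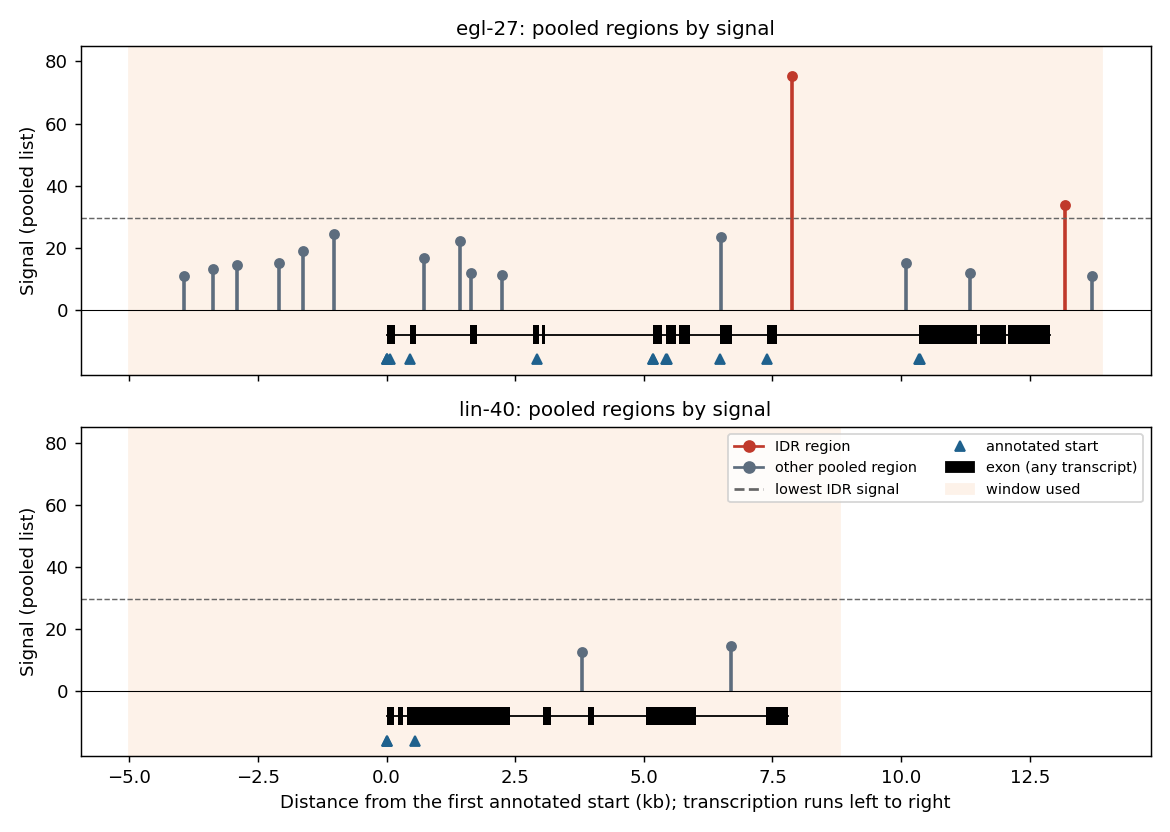
Pooled regions of *egl-27* (top) and *lin-40* (bottom) by distance of the summit from the first annotated start (x axis, kb) and signal in the pooled list (y axis), with exons as boxes and annotated starts as triangles below the line at 0. The intronic region of *egl-27* stands at 75.3, the region past its end at 33.7, and the 2 regions of *lin-40* at 12.6 and 14.4, below the dashed line at the lowest IDR signal of 29.5.

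Weaker regions lay on both sides of the strong peak. Of its 16 pooled regions, 6 lay upstream, 5 in introns, 3 in exons and 2 past the gene end. Their signals ran from 10.8 to 75.3 with a median of 15.1. The replicate lists hold 17 regions in the same window (replicate 1) and 14 (replicate 2). Per kb of window there were 0.847 pooled regions, against 0.299 over the genome and a median of 0.283 over the windows of all genes. At least 16 pooled regions were present in the windows of 46 genes (0.23%), and 1.66% of genes had as many per kb.

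The strongest of the regions outside the IDR list lay upstream. At 1020 bases before the first start, where the noncoding RNA genes C04A2.10 and C04A2.13 are annotated on opposite strands, the pooled signal was 24.5 (rank 1370). In replicate 1 it was 17.7 (rank 895) and in replicate 2 it was 6.67 (rank 10382), so the region stood higher in replicate 1 than in replicate 2. The 5 other upstream regions had pooled signals from 10.8 to 18.9. The highest of them, 1633 bases before the first start, is the one with 3 WGATAR matches and had signals of 7.40 in replicate 1 and 8.26 in replicate 2. Replicate 1 also lists a stronger region that overlaps it, at chrII:6832990-6833333, with a signal of 14.5 (rank 1761) and a summit outside the pooled region.

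A region in the body of the gene lay at an annotated internal start. Its summit is 28 bases past the start of transcript C04A2.3c.5, in an exon, with a pooled signal of 23.5 (rank 1599). That annotated start lies 2 bases before a splice acceptor, so it need not be where transcription begins. The replicates differed here too, with 16.8 (rank 1082) in replicate 1 and 5.06 (rank 22205) in replicate 2, the latter below that list's median. In intron 2 of C04A2.3a.1, a region 1431 bases from the first start had a pooled signal of 22.3 (rank 1913) and 8.80 in replicate 2, and no replicate 1 summit lay inside it. A region that overlaps it, in an exon 1637 bases from the first start, had 11.99 in the pooled list, 12.1 in replicate 1 and 6.86 in replicate 2. The other intronic regions of *egl-27* had pooled signals of 16.8, 11.1 and 15.01. The last of these lies in the same intron as the strong peak, 265 bases before the start of C04A2.3c.7. That start too lies 2 bases before a splice acceptor. The remaining exonic region had 11.9 and the remaining one past the gene end 10.8.

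Both replicates were present at a minority of these regions by summit, a share near that of all pooled regions. A summit of each replicate list lay inside 6 of the 16 pooled regions of *egl-27*, of replicate 1 alone inside 6, of replicate 2 alone inside 3 and of neither inside 1. Over the whole pooled list, 33.7% of regions contained a summit of both. Counting 1 base of overlap in place of a summit inside, both replicates were present at 11 of the 16. No share over the whole pooled list is at hand for that rule, so nothing is read from that count. The 6 were the strong intronic region, the region at *tbc-6*, the upstream regions 1020 and 1633 bases before the first start, the region at the start of C04A2.3c.5 and the exonic region 1637 bases from the first start.

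**Figure D2:**
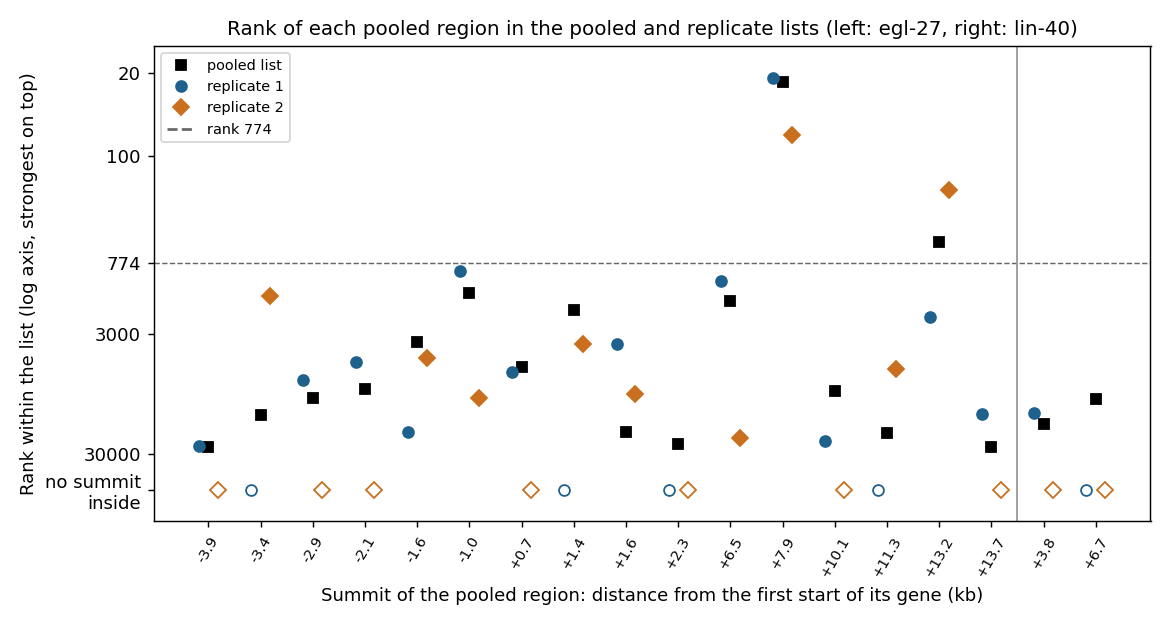
Rank of each of the 16 pooled regions of *egl-27* and the 2 of *lin-40* in the pooled list (squares), replicate 1 (circles) and replicate 2 (diamonds), on a log axis with the strongest on top and open symbols where no replicate summit lay inside the region. The intronic region 7.9 kb from the first start is above rank 774 in all 3 lists, and the region at *tbc-6*, the last but one of *egl-27*, is above it in the pooled list and in replicate 2.

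*lin-40* had no IDR region, and its pooled regions were near the middle over all genes in number and strongest signal. Per kb of its long window they were fewer, at 0.145 against a median of 0.283 over genes. The pooled list holds 2 in its window, the median over genes, both in introns. The stronger, at chrV:3711515-3711854 in intron 7 of 7 of transcript T27C4.4a.1, had a signal of 14.4 (rank 10523), and the weaker, at chrV:3708623-3708962 in intron 4, had 12.6 (rank 16918). The second value lies below the median of the pooled list. The nearest IDR regions are far away, 194090 bases upstream of the window and 266209 bases downstream. The nearest pooled regions outside the window were 448 bases upstream of it (12.2) and 1792 bases downstream (10.7).

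The replicates did not place a region of *lin-40* at the same site. Replicate 1 lists a region in intron 4 with a signal of 8.38 (rank 13700) and one in an exon with 6.32 (rank 28785). Replicate 2 lists a region in intron 7 with 7.47 (rank 6844), whose summit falls just outside the pooled region there. It also lists one in an exon with 5.33 (rank 19367), below that list's median of 5.91. The summit of that exonic region lay 228 bases past an annotated start of *lin-40*. A summit of both replicates lay inside 0 of the 2 pooled regions. The 3 starts of *lin-40* lie at least 6140 bases upstream of the stronger pooled summit and at least 3248 bases upstream of the weaker. The nearest protein-coding start to the stronger one is that of *nrsn-1*, at 4284 bases. Of the 1022 residues of the longest LIN-40 form, 972 are encoded before the stronger summit.

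Set against all genes, *lin-40* lay near the middle by its strongest signal. That comparison was not adjusted for window length, 13.8 kb for *lin-40* against a median of 8.03 kb over genes. *egl-27* lay among the highest by the peak it was chosen for, so its place follows from that choice. The strongest pooled signal in the window was at least that of *lin-40* in 54.9% of protein-coding genes, against a median over genes of 14.9. It was at least that of *egl-27* in 41 genes (0.205%), several of which can share a region. As many pooled regions as the 2 of *lin-40* were present in 71.1% of genes, and as many per kb (0.145) in 74.3%. The reference marks as repeats 62.7% of the bases within 100 of the weaker *lin-40* summit and 26.4% at the stronger, against 19.4% at the intronic summit of *egl-27* and a median of 23.4% over all pooled windows. The part of repeats in these values was not tested.

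**Figure D3:**
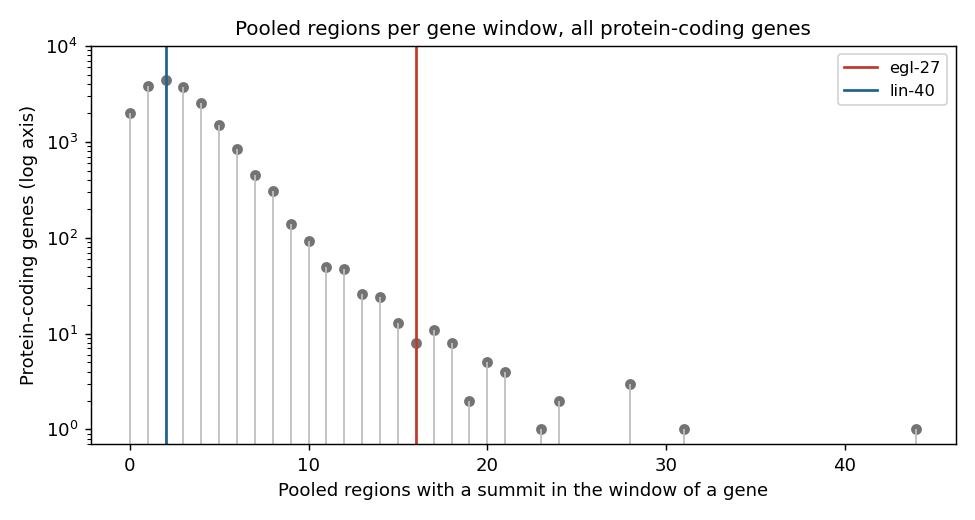
Number of pooled regions with a summit in the window of a gene (x axis) against the number of protein-coding genes with that many (y axis, log scale). The line for *lin-40* stands at 2, the median, and that for *egl-27* at 16, which 46 genes reach.

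GATA-type sequences were present near summits of both genes, and the strong intronic summit of *egl-27* had the most of any of their 18 pooled regions. Among IDR regions, 74.3% had WGATAR at most 100 bases from the summit, and among all pooled regions 41.2% did. At the pooled summits of *egl-27* it was present in 10 of 16 windows, and at those of *lin-40* in 1 of 2. The intronic summit of *egl-27* had 4 matches, a number that 10.5% of IDR windows reach or pass. Their centres lay at -36.5, 13.5, 17.5 and 41.5 bases from the summit. The pair at 13.5 and 17.5 shares bases in the stretch printed above. The match at 41.5 spells TGATAA on the minus strand, a spelling found in 58.1% of IDR windows and 21.9% of pooled ones. The strongest upstream region and the region at the start of C04A2.3c.5 had 0 matches in this window.

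**Figure D4:**
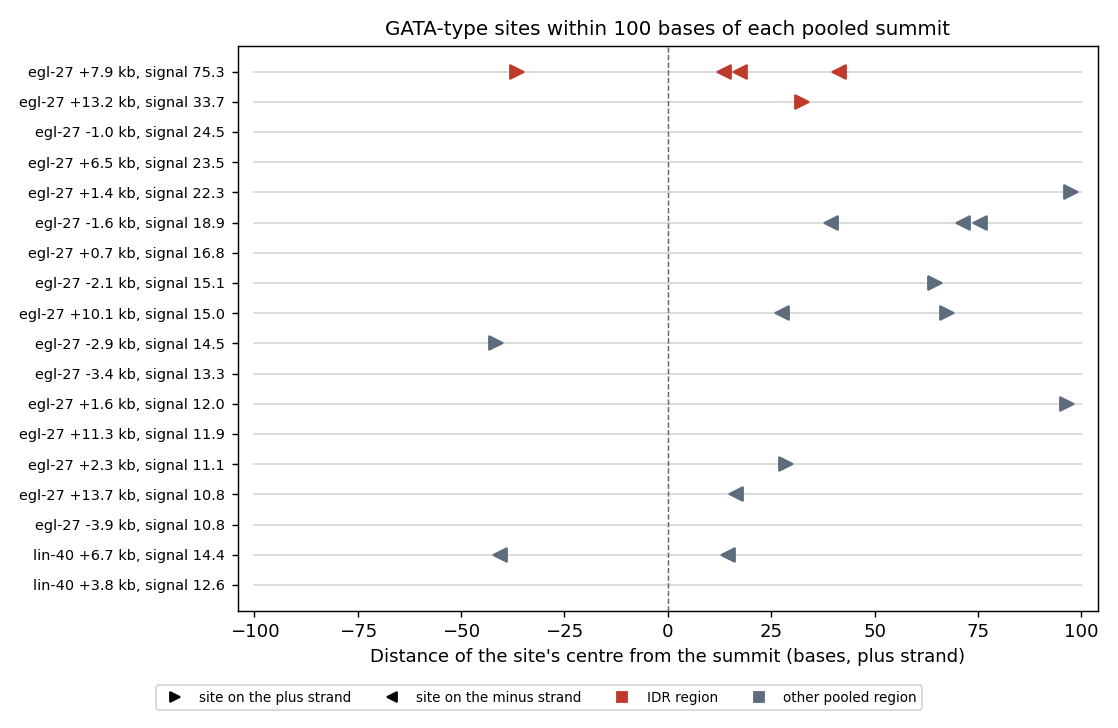
Position and strand of each WGATAR match within 100 bases of each pooled summit (x axis, bases from the summit), with regions of each gene ordered by signal. The top row, the intronic summit of *egl-27*, has 4 matches between -36.5 and 41.5, and the 2 rows of *lin-40* have 2 and 0.

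Most matches in these windows lay away from the pooled summits, as did most of the bases. The counts alone are therefore no sign that matches and summits lie apart. Whether matches were denser near the summits than elsewhere in the windows was not tested. The window of *egl-27* holds 58 matches to WGATAR, or 3.07 per kb, against 2.38 per kb over the genome, and 16 of them lay within 100 bases of a pooled summit, 5 of these at an IDR summit. The window of *lin-40* holds 18, or 1.30 per kb, of which 2 were within 100 bases of a pooled summit. The other 42 of *egl-27* and 16 of *lin-40* had no pooled summit within that distance, though the replicate lists have summits near some of them. Of TGATAA, *egl-27* holds 20 and *lin-40* 7, with 6 and 0 at a pooled summit.

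Genes with an intronic peak like that of *egl-27* were sought by signal alone, as the 3 next above and the 3 next below among genes with an intronic IDR region. Those above were *mec-17*, a tubulin acetyltransferase gene, at 81.1, *mom-1*, which encodes a Porcupine-type enzyme of Wnt secretion, at 78.8, and *asns-2*, an asparagine synthetase gene, at 77.5. Those below were *acs-13*, an acyl-CoA synthetase gene, at 73.9, *pmt-2*, a phosphoethanolamine methyltransferase gene, at 73.6, and *dhp-1*, a dihydropyrimidinase gene, at 71.3. The likeness covers 1 value in 1 pooled list, and the values differ from that of *egl-27* by at most 5.75. Their order was not the same in the replicates. In replicate 1 the 7 genes ranged from rank 8 (*mec-17*) to rank 96 (*mom-1*), and in replicate 2 from rank 6 (*mom-1*) to rank 348 (*acs-13*), with *egl-27* at 22 and 66. All 7 summits had at least 1 WGATAR match, *mom-1* with 1 and *acs-13* with 5. The intron of *acs-13*, of 4345 bases, is longer than that of *egl-27*, and those of the other 5 genes have from 166 to 1437 bases. The nearest protein-coding start was that of the gene itself for all but *mom-1*, whose summit is nearer to *cest-16*.

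Among genes of NuRD and a related complex, *let-418* alone had an IDR region beside *egl-27*. A list of 12 genes covers the NuRD complex and the related MEC complex, which joins the Mi-2 homologue LET-418 with the zinc finger protein MEP-1. In it, 2 genes had an IDR summit in the window, *egl-27* and *let-418*. Without the 2 MTA genes that is 1 of 10, beside 6.31% of all genes, and from 1 gene no difference from that share can be read. *let-418* encodes a Mi-2 remodelling ATPase. It had an IDR region 3687 bases upstream of its start, at chrV:5822976-5823315, with a signal of 68.9 (rank 33), 43.3 in replicate 1 (rank 30) and 29.3 in replicate 2 (rank 40). This region was high in both replicates, and the start of *let-418* is the nearest protein-coding one. A second IDR region, 141 bases past the gene end, had a signal of 39.0 (rank 314) and is nearer to *srh-76*, a chemoreceptor-family gene.

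No other gene of that list reached the IDR list. The strongest signals were 24.0 at *dcp-66*, the homologue of the p66 subunit, 21.6 at the deacetylase gene *hda-1* and 19.5 at *mep-1*. The second Mi-2 gene, *chd-3*, had 19.3, and the deacetylase genes *hda-2* and *hda-3* had 19.4 and 13.6. *lin-53* and *rba-1*, which encode RbAp46/48-type histone chaperones, lie next to each other and share their strongest region, at 19.0. *mbd-2*, a methyl-binding domain gene, had 15.5. Of the 12 genes, *hda-3* alone had a lower strongest signal than *lin-40*. The median over the 10 genes other than the MTA pair was 19.3, against 14.9 over all genes. These values were not adjusted for window length, which ran from 7.21 kb (*mbd-2*) to 12.2 kb (*chd-3*), beside a median of 8.03 kb over genes. The region of *lin-53* and *rba-1* also enters for both genes, so no difference from all genes is read from these medians.

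The Hox genes and the genes for Wnt ligands and Frizzled receptors, taken for the processes *egl-27* is known for, had no IDR region in their windows. In the 6 Hox genes the strongest signals ran from 12.1 (*php-3*) to 17.6 (*mab-5*). In the 9 genes for Wnt ligands and Frizzled receptors, they ran from 11.2 (*mom-2*) to 20.1 (*mom-5*), and *egl-20* had no pooled region at all. By 3 counts of the total, 0 of 6 and 0 of 9 allow shares of up to 50% and 33.3%, so these lists cannot be told from the 6.31% of all genes.

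**Figure D5:**
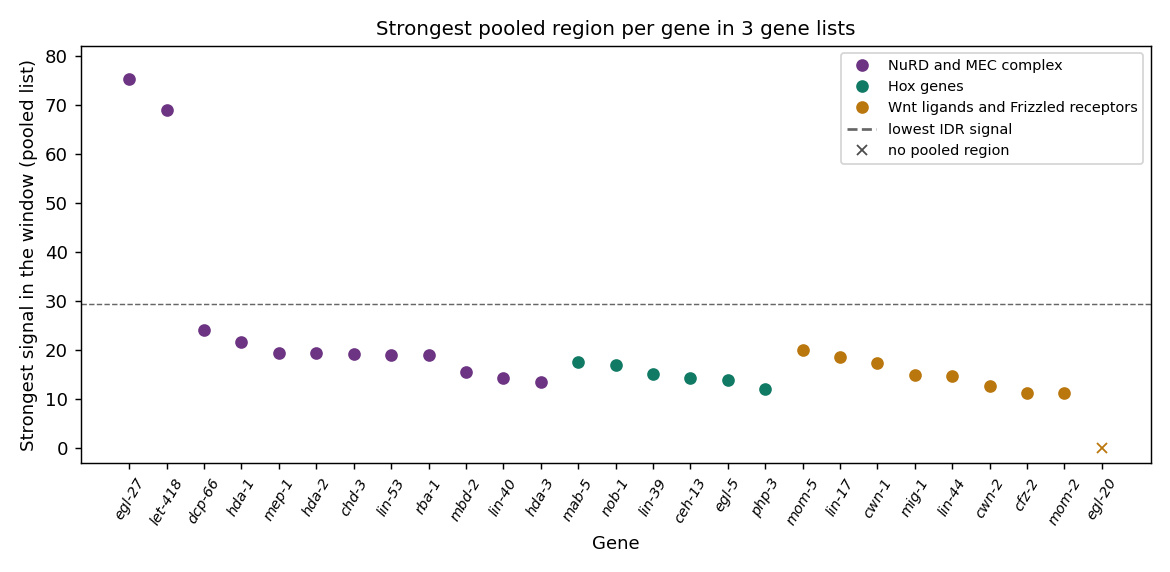
Strongest signal of the pooled list in the window of each gene (y axis) for the NuRD and MEC complex, Hox genes, and Wnt ligands and Frizzled receptors. *egl-27* at 75.3 and *let-418* at 68.9 stand above the dashed line at the lowest IDR signal of 29.5, and the next gene is *dcp-66* at 24.0.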

How the data were processed

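ELT-3 ChIP-seq regions of 2 biological replicates of 1 group were used as deposited on ce11. Per the descriptions deposited beside the lists, each replicate list was derived from that replicate's alignment and a further file, the pooled list from both alignments, and the IDR list from those 3 lists. Aligner, caller and IDR threshold are not stated in any source at hand. The only measurement used was the signal value that the authors' caller gave each region, in regions of fixed width (340 bases pooled and IDR, 344 and 336 in replicates 1 and 2). The lists for ce10 were not used here, since no annotation of that build was at hand.

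A region belongs to a gene when its summit lies in the window, with genes from Ensembl release 115 (WBcel235). A replicate is counted at a pooled region where a summit of its list lies inside. Matches to WGATAR were sought on both strands within 100 bases of the summit, overlapping ones included. Proteins were translated from coding exons and aligned with BLOSUM62, gap penalties 10 and 0.5. Python 3.11.15, pandas 2.3.3, numpy 2.4.6 and Biopython 1.88 were used. Counts per window and the motif search were tested on simulated data. No statistical test was made, since the samples form a single group, regions are not replicates, and *egl-27* was chosen by its signal. The limits on counts of 0 cover counting error only.

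Members, lists and named genes were chosen with earlier results of these data known. The text names the members, listed genes with an IDR region, genes whose start is nearer to a described region, and the 3 genes next above and below *egl-27* by intronic IDR signal. Other list members were named after their values were seen.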

Additional observations from a re-analysis of the deposited data

How the results depend on the processing

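Counts were called moved when they changed by more than 1.5 times, percentiles by more than the SD between the replicates, distances by more than 1.5 times, and the share of genes to outside its binomial interval. By these rules 12 of 50 values recomputed under alternatives moved, and smaller changes were not counted. With the window from 2000 bases upstream to the gene end, *egl-27* had 1 IDR region and 10 pooled regions, and the share of all genes with an IDR region was 3.49%. Of the NuRD and MEC complex genes, 1 had one, *egl-27* itself, and *let-418* no longer did. With the stronger 387 IDR regions *egl-27* had 1. Leaving out either replicate, the strongest 774 regions of the other gave 1 to 2 regions for *egl-27* and 0 for *lin-40*, and the strongest region of *egl-27* stood at the 99.8th to 99.9th percentile of its list, that of *lin-40* at the 54.3rd to 77.2nd. TGATAA alone gave 1 match at the strongest summit of *egl-27* and 0 at that of *lin-40*, and any GATA gave 7 at *egl-27*. With 1 base of overlap in place of a summit inside, both replicates were present at 11 pooled regions of *egl-27*, with no share over all pooled regions to set beside it. From the strong intronic summit the nearest first coding base was 2416 bases away, against 478 for the nearest start. The cause of the changes on leaving out a replicate was not tested. No paired analysis was possible because the samples form a single group. Depth is unknown, and 2 replicates give no error for a single region.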

Other observations

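A GA repeat lay at some of the *egl-27* regions, a feature looked for after the sequences were seen. GAGAGA, read on both strands, was present within 100 bases of the summit in 6 of the 16 pooled regions of *egl-27* and in 0 of the 2 of *lin-40*, against 34.4% of IDR windows and 14.6% of all pooled windows. The strongest upstream region of *egl-27*, which has no WGATAR match, held 7 overlapping copies, and the region at *tbc-6* held 3 beside its WGATAR match. The strong intronic window of *egl-27* held 0. Of the 6 windows with GAGAGA, 4 also had WGATAR.

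Annotated noncoding RNA genes number 10 in or overlapping the window of *egl-27*, all but C04A2.9 upstream of its first start, and 0 in that of *lin-40*. The number over all gene windows was not computed. Each window also overlaps 1 small nucleolar RNA gene, within the body of the gene.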
